A study of Mus musculus with 8 samples.

Results

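The proteasome subunit genes were followed in RNA pulled down with tagged ribosomes from hippocampal CCK cells. The mice carried a conditional knockout of SMARCA3 or were wild-type littermates. A gene was a member if it is protein-coding and its GENCODE vM21 symbol is Psma, Psmb, Psmc or Psmd followed by digits alone, which gave 39 of the 39017 genes counted. The 5 libraries of the conditional knockout (cKO) were made from mice that were CCK cre+, carried L10-EGFP and were SMARCA3 fl/fl, and the 3 wild-type (WT) libraries from their littermates that lacked SMARCA3 fl/fl. The labels describe CCK cre+ and L10-EGFP for the cross as a whole, and the pull-down needs both in WT too. SMARCA3 is the protein of the gene Hltf. Each library pooled 4 hippocampi, the age of the mice is not given in the sources used here, and nothing ties the pools of the 2 groups to each other, so the p-values measure the spread between these 8 pools. Translating ribosome affinity purification (TRAP) collects RNA on ribosomes that carry the EGFP-tagged protein L10, and Cre driven from Cck marks cells that express or once expressed Cck, glutamatergic cells among them.

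The proteasome is the large protease of the cytosol and nucleus that degrades proteins tagged with ubiquitin. Its 20S core is a stack of rings: alpha subunits (Psma genes) form the outer rings and gate the pore, and beta subunits (Psmb genes) form the inner rings, where 3 of them, Psmb5, Psmb6 and Psmb7, cut proteins. The 19S cap binds ubiquitin chains, removes them and unfolds the substrate with a ring of ATPases (Psmc genes), while most Psmd genes encode its other subunits. In neurons the proteasome is known for its part in synaptic protein turnover, and when its activity falls the transcription factor Nfe2l1 is known to raise the transcription of its subunit genes.

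The libraries held 31760155 to 61823651 counts. Levels are given in CPM, counts divided by the library's TMM-scaled total (trimmed mean of M-values) and brought to a common scale, unless per kb of exon is stated. Hltf was at 5.10, 4.49, 4.21, 2.83 and 11.4 CPM in cKO 1 to 5 and at 13.7, 8.39 and 9.87 CPM in WT 1 to 3. The library labelled cKO 5 thus lay within the WT range, against its label, and 4 of the 5 cKO libraries lay below the lowest WT library. The difference between the groups did not pass (exact permutation test, two-sided, p = 0.107, and edgeR log2 fold change -0.93 (SE 0.39), p 0.0383 before adjustment, adjusted p 0.558). The 8 markers of neurons and CCK cells summed to 17327 to 22365 CPM in cKO and 19748 to 23944 in WT, most of it Snap25, at 17265 CPM on average in cKO and 19140.1 in WT. Cck had 618, 571, 589, 837 and 691 CPM in cKO 1 to 5, against 631, 573 and 415 CPM in WT 1 to 3, and Gad1, a marker of GABAergic cells, had 49.4, 50.2, 39.8, 21.7 and 15.3 CPM in cKO 1 to 5, against 24.5, 33.5 and 44.7 CPM in WT 1 to 3. Gad2, another marker of GABAergic cells, had 87.7, 82.4, 68.7, 49.6 and 55.7 CPM in cKO 1 to 5, against 79.0, 82.9 and 97.2 CPM in WT 1 to 3. The log2 fold change was 0.044 (SE 0.36) for Gad1 and -0.33 (SE 0.18, adjusted p 0.650 by edgeR) for Gad2. Slc17a7, a vesicular transporter of glutamatergic neurons, had 439, 452, 471, 510.4 and 548 CPM in cKO 1 to 5, against 333, 365 and 335 CPM in WT 1 to 3, with all cKO libraries above all WT libraries. Its log2 fold change was 0.49 (SE 0.096, adjusted p 0.470 by edgeR), and the exact permutation p was 0.0179. The 8 oligodendrocyte markers, low throughout, were all above 0 on the log2 scale (median 0.82) and summed to 80.7 to 104 CPM in cKO and 68.9 to 72.3 in WT. The 7 astrocyte markers summed to 29.4 to 34.1 CPM in cKO and 23.4 to 35.9 in WT, the 7 microglia markers to 7.82 to 13.9 CPM in cKO and 9.39 to 16.1 in WT. The 3 precursor markers gave 4.28 to 8.42 CPM in cKO and 2.53 to 3.81 in WT, and the 6 vessel markers 0.527 to 3.33 CPM in cKO and 1.07 to 1.29 in WT. No marker was at 0 counts in all libraries.

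Taken as a sum over all 39 genes, proteasome subunit RNA was lower in every cKO library than in any WT library. The sum was 2529.8, 2385, 2371, 2475 and 2393 CPM in cKO 1 to 5, against 2710.0, 2715 and 2732 CPM in WT 1 to 3. The WT libraries lay close together and the cKO libraries spread more widely below them. The means were 2431 ± 68.4 CPM in cKO (SD, n = 5) and 2719 ± 11.9 CPM in WT (SD, n = 3), a ratio of 0.894. Without the library labelled cKO 5 the cKO mean was 2440.3 ± 75.1 CPM (SD, n = 4). As a share of the raw counts, the subunit genes took 0.256, 0.241, 0.239, 0.241 and 0.227% in cKO 1 to 5 and 0.274, 0.275 and 0.278% in WT 1 to 3. The sum is a description without a test, because the members were chosen with results of these data known. In pooled pull-downs, fewer cells of a type and less RNA per cell cannot be told apart.

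**Figure D1:**
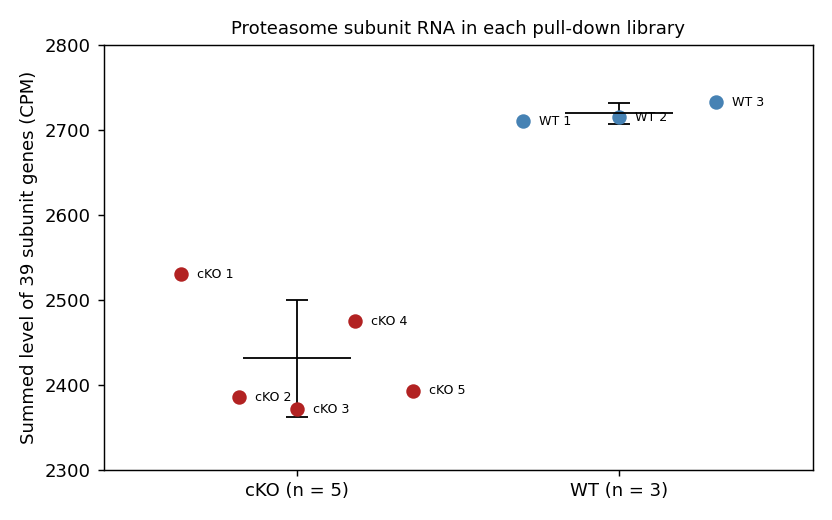
Summed level of the 39 subunit genes in CPM (vertical axis, starting at 2300) for the 5 cKO libraries (left, red) and the 3 WT libraries (right, blue). Points are libraries and black bars give mean and SD. All cKO points, from 2371 to 2529.8 CPM, lie below all WT points, from 2710.0 to 2732 CPM.

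Gene by gene the differences were small and none passed. Of the 39 members 36 had enough counts to be tested, and Psma8, Psmb8 and Psmb11 did not. By edgeR's quasi-likelihood test with Benjamini-Hochberg adjustment over the 17654 genes tested, 0 members were called at an adjusted p under 0.05, where 0% of all genes were called. DESeq2, fitted to 25032 genes, called 129 genes, and 0 of the 35 members to which it gave an adjusted p. Not every gene fitted was given an adjusted p by DESeq2. By limma-voom with quality weights, 0 members and 4 of 17654 genes were called. At an unadjusted p under 0.05, 7 members were lower in cKO, 19.4% of the 36 tested against a background of 3.70% of all genes tested, and 0 were higher against 5.02%. Among the 9151 genes that averaged 10 CPM or more, the level at which most members lie, 5.53% were lower by that bound. In 7 members all cKO libraries lay below all WT libraries, also 19.4% against 3.82% of all genes tested, and in 0 members above, against 3.38%. Of the 9151 genes that averaged 10 CPM or more, 469 (5.13%) lay below without overlap and 376 above. The log2 fold change was below 0 in 30 of the 36 tested members, against 47.0% of all genes, and its median was -0.17 against 0.023 over all genes tested. It ran from -0.40 for Psmb1 to 0.17 for Psmd13, so no tested member's estimate reached a factor of 1.5. The estimate for Psmb9, which had few counts, has an SE of 1.09 and ran from -0.89 to 0.37 with 1 library left out.

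**Figure D2:**
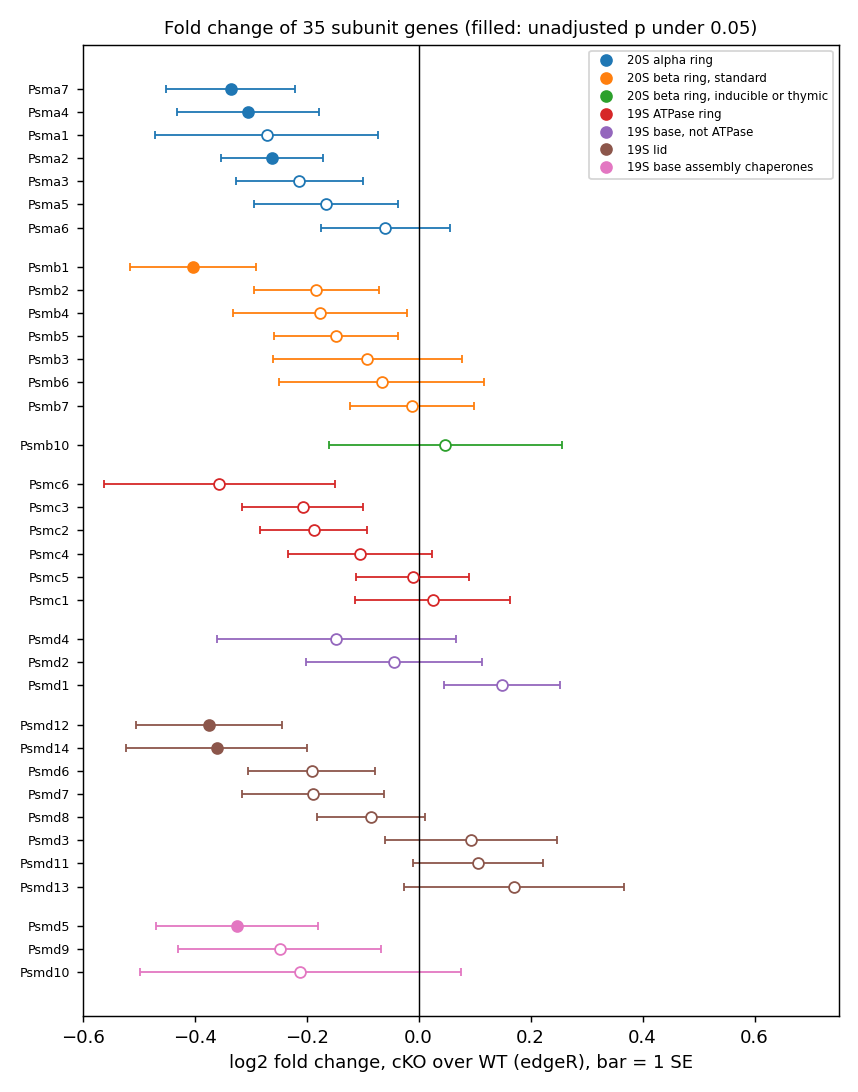
Log2 fold change of cKO over WT from edgeR (horizontal axis) with 1 SE for 35 tested subunit genes, ordered by role from the alpha ring at the top to the chaperones at the bottom. Filled points have an unadjusted p under 0.05 and none passes adjustment. Psmb9, with an SE of 1.09, is left out of the plot. All 14 standard core subunits lie left of 0, and the points right of 0 are Psmb10, Psmc1, Psmd1, Psmd3, Psmd11 and Psmd13.

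The count differed between fits, and so did the share over all genes tested. Without WT 1 the members with an unadjusted p under 0.05 numbered 2 of 37 tested, without WT 2 they numbered 4 of 37 and without WT 3 they numbered 3 of 37, all lower in cKO. In the same fits 2.13, 1.99 and 2.87% of all genes were lower at that bound. Without the library labelled cKO 5 there were 5 of 36 against 4.30% of all genes, and 9 of 36 against 4.94% without both cKO 4 and cKO 5. Once each library's trend on GC content and exon length was removed, 3 remained with an unadjusted p under 0.05, Psmb1, Psmd12 and Psmd5, against 3.31% of all genes, and the median of the members was -0.080 against 0.036 over all genes tested. Across the 36 members Spearman's rho of the log2 fold change was 0.478 against GC content and -0.094 against exon length, a description across genes, which are not independent replicates and come from the same libraries. The median GC content was 50.4% over the members and 50.3% over all genes tested. The oligodendrocyte markers and Slc17a7, given above, move with the same groups, and their part in these values was not tested.

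The cKO libraries did not share one profile. Of the 36 tested members, 19, 23, 23, 18 and 21 lay below the lowest WT library in cKO 1 to 5, and 4, 2, 3, 10 and 10 lay above the highest. Over all genes tested, 25.8, 27.5, 27.8, 34.4 and 37.2% lay below and 28.3, 28.7, 28.5, 34.1 and 34.5% above. Members above the WT range were thus more numerous in cKO 4 and the library labelled cKO 5 than in cKO 1 to 3, and so were genes at large, on both sides. The median deviation of the members from the WT mean was -0.11, -0.15, -0.18, -0.089 and -0.20 on the log2 scale in cKO 1 to 5, while that over all genes tested stayed between -0.026 and 0.016. For the 20S core it was -0.26, -0.20, -0.22, -0.16 and -0.20, and for the 19S cap with its chaperones -0.076, -0.083, -0.16, -0.0017 and -0.18.

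**Figure D3:**
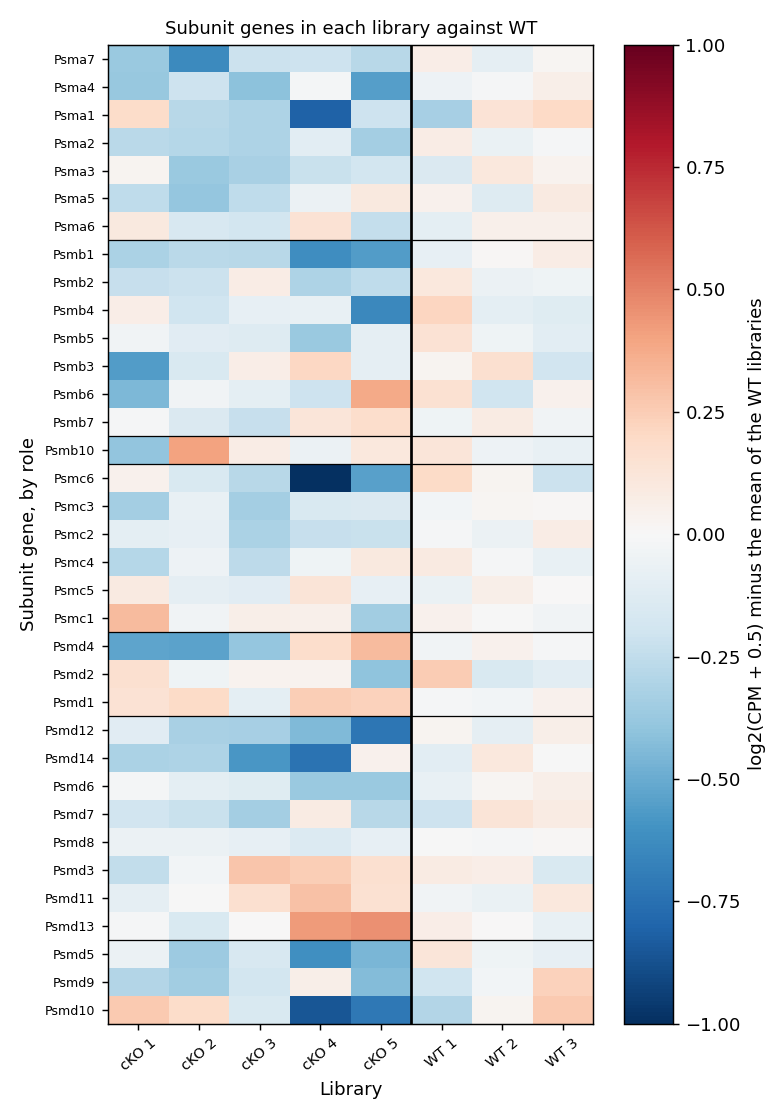
Deviation of each of 35 tested subunit genes (rows, grouped by role, Psmb9 left out) from the mean of the WT libraries, in log2(CPM + 0.5), for cKO 1 to 5 (left of the black line) and WT 1 to 3 (right). Blue is lower and red is higher. The alpha ring and Psmb1 rows are mostly blue in the cKO columns, and the deepest blue stands in cKO 4 and cKO 5.

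In the alpha ring 3 of 7 tested genes were lower at an unadjusted p under 0.05, against 3.70% of all genes tested. All 7 had a log2 fold change below 0, against 47.0% of all genes, with a median of -0.26 against 0.023 over all genes tested. Psma7 (ENSMUSG00000027566, chromosome 2, 180036374 to 180042433, mm10) had 88.7, 73.7, 98.7, 99.3 and 94.9 CPM in cKO 1 to 5, against 120.5, 108 and 116 CPM in WT 1 to 3. Every cKO library lay below every WT library, with cKO 2 the lowest. The means were 91.1 ± 10.6 CPM in cKO (SD, n = 5) and 115 ± 6.28 CPM in WT (SD, n = 3). The log2 fold change was -0.34 (SE 0.12, adjusted p 0.499 by edgeR), at a p of 0.0141 before adjustment. Psma2 (ENSMUSG00000015671, chromosome 13, 14613240 to 14674236) had 151, 149.6, 147, 169 and 144 CPM in cKO 1 to 5, against 192, 174 and 181 CPM in WT 1 to 3. Here cKO 4 stood nearest to WT, and the groups again did not overlap. Its log2 fold change was -0.26 (SE 0.090, adjusted p 0.499 by edgeR), and -0.11 after the GC and length correction.

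Psma4 (ENSMUSG00000032301, chromosome 9, 54950790 to 54958030) had 70.8, 79.8, 69.0, 90.6 and 62.5 CPM in cKO 1 to 5, against 88.8, 91.4 and 96.1 CPM in WT 1 to 3. The groups overlapped through cKO 4 alone, which lay inside the WT range. Its log2 fold change was -0.30 (SE 0.13, adjusted p 0.553 by edgeR). Psma3 and Psma1 had log2 fold changes of -0.21 (SE 0.11) and -0.27 (SE 0.20), and Psma5 had -0.17 (SE 0.13), all with overlapping groups. Psma6, the alpha gene with the highest level per length, had 152, 127, 125, 158 and 121 CPM in cKO 1 to 5, against 133, 148 and 147 CPM in WT 1 to 3, and its log2 fold change of -0.059 (SE 0.11) was 0.089, above 0, after the correction. Psma8, which replaces Psma7 in the proteasome of male germ cells, had 1 count in cKO 2 and 0 in the other libraries.

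In the standard beta ring Psmb1, a subunit without catalytic activity, had the smallest p of all members. Psmb1 (ENSMUSG00000014769, chromosome 17, 15475021 to 15499751) had 99.1, 103, 102, 80.0 and 83.8 CPM in cKO 1 to 5, against 116, 125 and 129.8 CPM in WT 1 to 3. All 5 cKO libraries lay below all 3 WT libraries, with cKO 4 and the library labelled cKO 5 the lowest. The means were 93.5 ± 10.7 CPM in cKO (SD, n = 5) and 124 ± 6.74 CPM in WT (SD, n = 3), a fold of 0.756. The log2 fold change was -0.40 (SE 0.11, adjusted p 0.499 by edgeR), at a p of 0.00431 before adjustment and an exact permutation p of 0.0179, the smallest that 56 splits of 8 libraries allow. DESeq2 gave an adjusted p of 0.0737, the smallest of the members and also short of the threshold. The log2 fold change of Psmb1 was -0.29 after the GC and length correction and lay between -0.44 and -0.35 with 1 library left out.

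The 3 catalytic subunits, like the other standard beta genes, had log2 fold changes nearer to 0 than that of Psmb1. Differences between genes were not tested. Psmb5, which carries the chymotrypsin-like activity, had 85.8, 80.97, 80.3, 67.7 and 82.6 CPM in cKO 1 to 5, against 96.99, 85.4 and 81.8 CPM in WT 1 to 3. The ranges met between the lower WT and the upper cKO libraries, and the log2 fold change was -0.15 (SE 0.11, adjusted p 0.755 by edgeR). Psmb6, which carries the caspase-like activity, had 23.3, 31.1, 29.7, 27.5 and 41.5 CPM in cKO 1 to 5, against 35.5, 27.7 and 33.0 CPM in WT 1 to 3. The library labelled cKO 5 was the highest of all 8 and cKO 1 the lowest, and the log2 fold change was -0.066 (SE 0.18). Psmb7, which carries the trypsin-like activity, had 164, 149.7, 141, 180.1 and 187 CPM in cKO 1 to 5, against 160.3, 175 and 162 CPM in WT 1 to 3. The WT libraries lay inside the cKO range, and the log2 fold change was -0.012 (SE 0.11). Psmb7 shares 405 exon bases with Nek6 on the opposite strand, and without the strand setting of the counting their reads cannot be told apart.

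Of the other standard beta genes, Psmb2 had 88.7, 89.4, 109.7, 83.7 and 87.0 CPM in cKO 1 to 5, against 112, 99.8 and 101 CPM in WT 1 to 3, with cKO 3 inside the WT range and the other cKO libraries below it. Its log2 fold change was -0.18 (SE 0.11), and those of Psmb4 and Psmb3 were -0.18 (SE 0.16) and -0.092 (SE 0.17), with edgeR adjusted p of 0.684, 0.799 and 0.916. All 7 standard beta genes were below 0, against 47.0% of all genes tested, with a median of -0.15 against 0.023.

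The inducible beta subunits, which interferon is known to bring into the immunoproteasome in place of the standard catalytic ones, were near the detection floor, with the exception of Psmb10. Psmb8 had 0, 1, 7, 0 and 0 counts in cKO 1 to 5 and 0, 3 and 2 counts in WT 1 to 3. Psmb9 had 14, 33, 7, 0 and 46 counts in cKO and 9, 23 and 35 counts in WT. These counts are too few to compare the groups, and Psmb9, which passed the filter, had a log2 fold change of -0.071 (SE 1.09). Psmb10 had 8.41, 14.98, 11.8, 10.8 and 12.1 CPM in cKO 1 to 5, against 12.3, 10.8 and 10.7 CPM in WT 1 to 3, with a log2 fold change of 0.048 (SE 0.21, adjusted p 0.972 by edgeR). The lowest and the highest library were both cKO libraries. Per kb of exon, Psmb10 stood at 10.3, 20.1, 16.9, 11.98 and 13.1% of Psmb7, its standard counterpart, in cKO 1 to 5 and at 15.4, 12.4 and 13.2% in WT 1 to 3. By the longest protein-coding transcript in place of the exon union, these shares ran from 4.53 to 8.85% in cKO and from 5.46 to 6.78% in WT. Psmb9 was at most 1.54% of Psmb6 per kb of exon union, and at most 3.11% by the mean length of the transcripts. Psmb11, the beta subunit of thymic cortical epithelium, had 16, 5, 27, 0 and 1 counts in cKO 1 to 5 and 2, 5 and 0 counts in WT 1 to 3. Microglia markers, a cell type in which inducible subunits are known, were low in both groups as given above, and their part in Psmb10 was not tested.

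Among the 6 ATPases of the cap, which unfold the substrate and thread it into the core, 0 had an unadjusted p under 0.05. Over all genes tested, 3.70% were lower and 5.02% higher at that bound. In the ring 5 genes were below 0, against 47.0% of all genes, with a median of -0.15 against 0.023. Psmc2 had 103, 105, 89.1, 94.2 and 95.0 CPM in cKO 1 to 5, against 110.0, 106 and 116 CPM in WT 1 to 3, and Psmc3 had 49.4, 59.6, 49.4, 56.2 and 56.5 CPM in cKO 1 to 5, against 61.4, 63.4 and 63.0 CPM in WT 1 to 3. In both genes, as in 3.82% of all genes tested, all cKO libraries lay below all WT libraries, by a narrow gap. Their log2 fold changes were -0.19 (SE 0.096) and -0.21 (SE 0.11), with edgeR adjusted p of 0.616 and 0.622 and exact permutation p of 0.0357 and 0.0536. Psmc3 shares 215 exon bases with Slc39a13 on the opposite strand. Psmc6 had the lowest fold change of the ring, -0.36 (SE 0.21), and ranged between 28.7 CPM in cKO 4 and 59.7 CPM in cKO 1, against 50.03 to 66.2 CPM in WT. Psmc4, Psmc5 and Psmc1 had -0.11 (SE 0.13), -0.011 (SE 0.10) and 0.025 (SE 0.14).

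In the lid of the cap 2 of 8 members were lower at an unadjusted p under 0.05, against 3.70% of all genes tested. Psmd12, a scaffold subunit of the lid (ENSMUSG00000020720, chromosome 11, 107479484 to 107504362), had 93.2, 80.8, 80.2, 74.4 and 61.1 CPM in cKO 1 to 5, against 103, 95.0 and 105 CPM in WT 1 to 3. The groups did not overlap, and the library labelled cKO 5 was the lowest. The means were 77.9 ± 11.6 CPM in cKO (SD, n = 5) and 101 ± 5.34 CPM in WT (SD, n = 3), with a log2 fold change of -0.37 (SE 0.13, adjusted p 0.499 by edgeR). Psmd14, the enzyme that removes the ubiquitin chain from the substrate (ENSMUSG00000026914, chromosome 2, 61711694 to 61800376), had 73.9, 74.5, 61.4, 55.0 and 95.2 CPM in cKO 1 to 5, against 85.9, 99.2 and 92.2 CPM in WT 1 to 3. Here the library labelled cKO 5 lay within the WT range and the other 4 cKO libraries below it. Its log2 fold change was -0.36 (SE 0.16) over all libraries, with an edgeR adjusted p of 0.565, -0.49 without that library, and -0.18 after the GC and length correction.

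Psmd8, a lid subunit, had the smallest SD for its level of all tested members in both groups, at 56.5, 56.6, 55.6, 53.5 and 55.8 CPM in cKO 1 to 5, against 58.9, 58.4 and 59.5 CPM in WT 1 to 3. The groups did not overlap, but the log2 fold change was -0.085 (SE 0.096, adjusted p 0.858 by edgeR), with an exact permutation p of 0.0179. Psmd6 and Psmd7, the partner of Psmd14, had -0.19 (SE 0.11) and -0.19 (SE 0.13). Psmd3, Psmd11 and Psmd13 lay on the other side of 0, at 0.093 (SE 0.15), 0.11 (SE 0.12) and 0.17 (SE 0.20). The lid thus held 5 genes below 0 and 3 above, with a median of -0.14. Over all genes tested 47.0% were below 0, with a median of 0.023. Psmd13 shares 342 exon bases with Sirt3 on the opposite strand.

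Of the base subunits that are not ATPases, Psmd1, a large scaffold of the base, had 118, 122, 99.5, 126 and 125 CPM in cKO 1 to 5, against 106, 104 and 109.7 CPM in WT 1 to 3. Of the cKO libraries 4 lay above all WT libraries and cKO 3 below them, with a log2 fold change of 0.15 (SE 0.10, adjusted p 0.733 by edgeR). Psmd1 shares 301 exon bases on the same strand with the predicted gene Gm21972. Psmd4, a receptor for ubiquitin chains, had 23.8, 23.7, 26.3, 39.1 and 43.1 CPM in cKO 1 to 5, against 33.7, 35.6 and 34.3 CPM in WT 1 to 3. The cKO libraries lay on both sides of a narrow WT range, cKO 1 to 3 below it and cKO 4 and the library labelled cKO 5 above it. Over all libraries its log2 fold change was -0.15 (SE 0.21), and without cKO 4 and cKO 5 it was -0.50, with an edgeR adjusted p of 0.342. Psmd2, the other large scaffold, had -0.043 (SE 0.16).

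Psmd5, Psmd9 and Psmd10 assist the assembly of the base and leave before the cap is complete. Psmd5 (ENSMUSG00000026869, chromosome 2, 34849734 to 34874968) had 45.6, 36.9, 42.4, 30.9 and 34.6 CPM in cKO 1 to 5, against 51.7, 46.2 and 45.02 CPM in WT 1 to 3. All cKO libraries but cKO 1 lay below the WT range, with a log2 fold change of -0.32 (SE 0.14, adjusted p 0.565 by edgeR) and -0.30 after the GC and length correction. Psmd9 had 13.0, 12.5, 14.1, 16.8 and 11.8 CPM in cKO 1 to 5, against 13.9, 15.8 and 18.9 CPM in WT 1 to 3, with a log2 fold change of -0.25 (SE 0.18). Psmd10 had -0.21 (SE 0.29), and its 2 lowest libraries were cKO 4 at 7.36 CPM and the library labelled cKO 5 at 8.18 CPM.

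Levels per kb of exon gave much the same order of the members in both groups. Length here is the union of a gene's exons, and the levels and the top of the order depend on that choice. Psma6 was highest, at 111 ± 13.8 CPM per kb in cKO (SD, n = 5) and 115 ± 6.91 in WT (SD, n = 3), also by the mean length of the protein-coding transcripts, while by the longest of them Psmb7 was. Next came Psmb5, at 88.4 ± 7.66 CPM per kb in cKO (SD, n = 5) and 98.0 ± 8.83 in WT (SD, n = 3), and Psmb2, at 76.2 ± 8.53 CPM per kb in cKO (SD, n = 5) and 86.5 ± 5.50 in WT (SD, n = 3). The order went on with Psmc5, Psma5, Psmb4, Psma2 and Psmb7, all above 40 CPM per kb in both groups. At the low end stood Psmb9, at 0.124 ± 0.132 CPM per kb in cKO (SD, n = 5) and 0.129 ± 0.0660 in WT (SD, n = 3), and Psmd9, at 1.88 ± 0.268 CPM per kb in cKO (SD, n = 5) and 2.24 ± 0.348 in WT (SD, n = 3). Among the 35 pairs of neighbours in the WT order, the library ranges overlapped in 25, so the order within stretches such as Psma4 to Psmd14 is not resolved. The 14 standard core subunits, which the 20S particle holds in equal number, had a ratio of highest to lowest of 6.77 in cKO and 6.74 in WT, with Psma6 at the top and Psmb6 at the bottom. For the 6 ATPases it was 5.18 in cKO and 4.07 in WT, between Psmc5 and Psmc6. By the mean transcript length the ratio of the core subunits was 3.89 in cKO and 3.88 in WT, and that of the ATPases 3.50 in cKO and 2.76 in WT. Between the groups 35 of 36 members kept their rank within 2 places, and Psmd12, at rank 15 in cKO and rank 10 in WT, moved most.

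**Figure D4:**
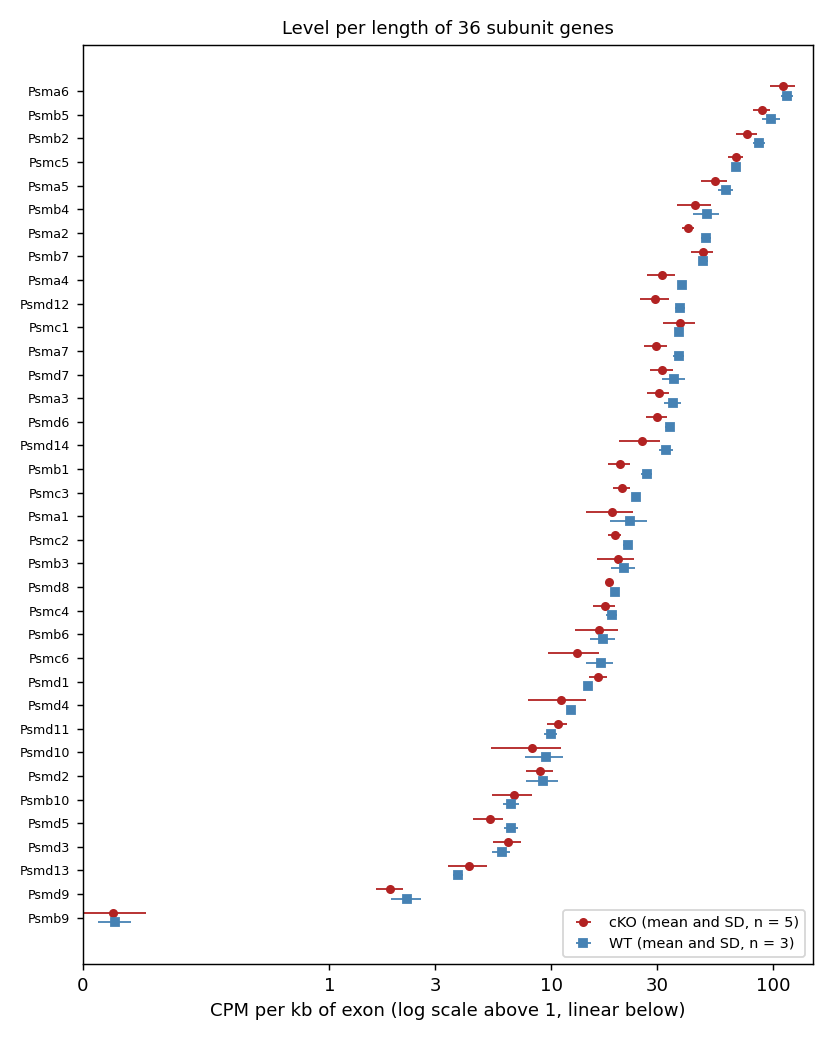
Level of the 36 tested subunit genes in CPM per kb of exon union (horizontal axis, logarithmic above 1 and linear below), ordered by the WT mean from top to bottom. Red circles are cKO means with SD (n = 5) and blue squares are WT means with SD (n = 3). Both groups run between Psma6, at 111 in cKO and 115 in WT, and Psmb9, at 0.124 in cKO and 0.129 in WT.

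Promoters were searched for motifs of regulators known for proteasome genes, and a few that hold a match are shown. The motifs searched were TGACNNNGC, a core of the antioxidant response element that Nfe2l1 binds, and CCAAT, the box bound by NF-Y, both on either strand. The RefSeq promoters used here covered 32 of the 39 members, and the 250 bases before each start were read. TGACNNNGC stood in 5 of 34 member promoters (14.7%), those of Psmb5, Psmb6, Psmc6, Psmd9 and Psmd12, and in 10.2% of all 32851 promoters. CCAAT stood in 13 member promoters (38.2%) and in 33.8% of all. The 4 promoters shown are from RefSeq on GRCm38.p6, 5′ to 3′ on the strand of the gene, with matches in capitals and without bases that GENCODE places inside the gene. Psma2, Psma7 and Psmd12 are 3 of the 7 members whose 5 cKO libraries lay below WT, and Psmb5, shown beside them, is a catalytic subunit whose groups overlapped. They were chosen because they hold a match, after their values were seen. Of the other 4 members without overlap, Psmc2 holds CCAAT, Psmd8 holds neither motif, and Psmb1 and Psmc3 are among those not read.
Psma2, chr13:14612992-14613239, plus strand: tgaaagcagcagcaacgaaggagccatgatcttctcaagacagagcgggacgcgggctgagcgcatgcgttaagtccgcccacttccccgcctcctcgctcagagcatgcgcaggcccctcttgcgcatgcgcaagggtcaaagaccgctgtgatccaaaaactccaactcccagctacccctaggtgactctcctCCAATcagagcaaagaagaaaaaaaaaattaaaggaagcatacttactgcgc
Psma7, chr2:180042465-180042714, minus strand: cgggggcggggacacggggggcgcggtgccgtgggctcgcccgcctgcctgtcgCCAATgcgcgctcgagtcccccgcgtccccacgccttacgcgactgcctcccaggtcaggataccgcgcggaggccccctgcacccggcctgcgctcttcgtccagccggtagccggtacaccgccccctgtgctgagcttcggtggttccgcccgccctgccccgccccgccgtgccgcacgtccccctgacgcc
Psmd12, chr11:107479278-107479483, plus strand: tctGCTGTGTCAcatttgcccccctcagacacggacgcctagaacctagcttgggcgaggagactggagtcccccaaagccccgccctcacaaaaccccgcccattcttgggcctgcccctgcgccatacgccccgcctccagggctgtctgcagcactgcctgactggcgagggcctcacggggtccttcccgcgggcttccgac
Psmb5, chr14:54618023-54618245, minus strand: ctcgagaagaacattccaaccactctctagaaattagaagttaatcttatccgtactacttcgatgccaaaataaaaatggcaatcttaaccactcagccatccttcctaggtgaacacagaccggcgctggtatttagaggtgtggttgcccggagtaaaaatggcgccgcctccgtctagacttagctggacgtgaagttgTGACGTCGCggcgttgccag
The match to CCAAT begins 54 bases before the start of Psma2 and 196 before that of Psma7. The TGACNNNGC match begins 47 bases before the start of Psmb5 and, on the opposite strand, 247 before that of Psmd12. The RefSeq starts lie 2 to 44 bases from those of GENCODE. A match is a description of the letters and says nothing on binding in these cells.

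Around the subunits, 44 of 45 further genes of the ubiquitin and proteasome pathway were tested and none, 0 of 44, passed adjustment in the edgeR fit. Of them 3 higher and 3 lower genes in cKO had an unadjusted p under 0.05, 6.82% each, against 5.02% and 3.70% of all genes tested, and the median was -0.043. In 4 of the 44 genes (9.09%) all cKO libraries lay below all WT libraries, against 3.82% of all genes tested. In 3 of the 44 they lay above, against 3.38%. Ubb, which encodes chains of ubiquitin, was on the high side. Ubb had 493, 533, 522, 634 and 626 CPM in cKO 1 to 5, against 472, 458 and 408 CPM in WT 1 to 3. All cKO libraries lay above all WT libraries, with cKO 4 and the library labelled cKO 5 the highest. The log2 fold change was 0.33 (SE 0.11, adjusted p 0.499 by edgeR), with an exact permutation p of 0.0536. Psme1, a subunit of an activator that caps the core without ATP, had 70.7, 73.7, 67.7, 95.3 and 74.6 CPM in cKO 1 to 5, against 63.1, 64.9 and 60.6 CPM in WT 1 to 3, with a log2 fold change of 0.28 (SE 0.13, adjusted p 0.566 by edgeR). Here cKO 4 lay far above the other libraries.

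The 3 lower genes with an unadjusted p under 0.05 were Rps27a, Psmg2 and Rad23b. Rps27a, which encodes ubiquitin fused to a protein of the small ribosomal subunit, had 129, 151, 141, 105 and 118 CPM in cKO 1 to 5, against 189, 204 and 182 CPM in WT 1 to 3. The groups lay well apart, with a log2 fold change of -0.57 (SE 0.12, adjusted p 0.470 by edgeR) and a p of 6.2e-04 before adjustment. DESeq2 called it, with an adjusted p of 0.0104. Psmg2, a chaperone of core assembly, had 11.6, 8.93, 13.4, 11.5 and 8.20 CPM in cKO 1 to 5, against 15.5, 20.8 and 13.5 CPM in WT 1 to 3, with a log2 fold change of -0.64 (SE 0.22, adjusted p 0.499 by edgeR). Rad23b, which carries ubiquitinated proteins to the proteasome, had 215, 188, 217, 229 and 182 CPM in cKO 1 to 5, against 259, 251 and 240.2 CPM in WT 1 to 3, with a log2 fold change of -0.28 (SE 0.099, adjusted p 0.503 by edgeR). In all 3 genes the groups did not overlap, in Psmg2 by a narrow gap between 13.4 CPM in cKO 3 and 13.5 CPM in WT 3.

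**Figure D5:**
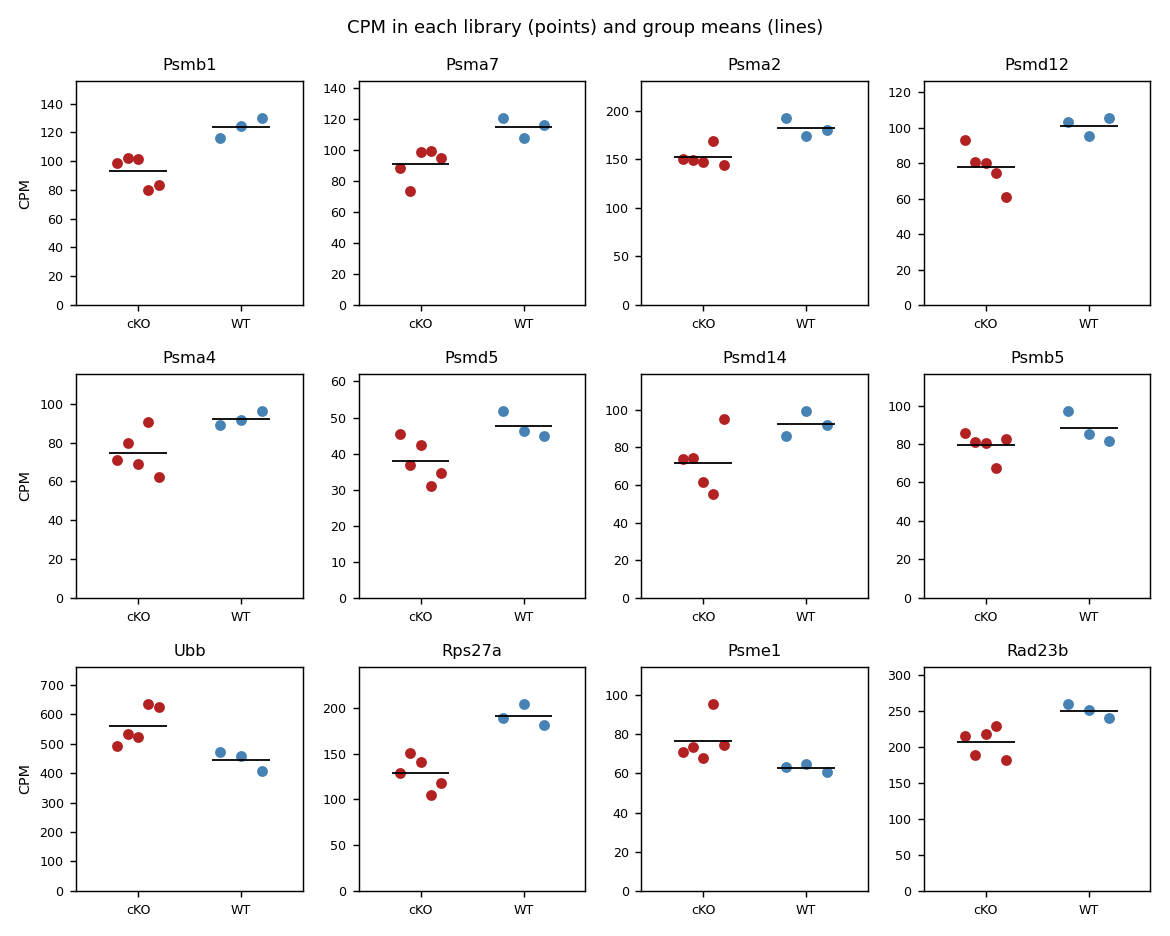
CPM (vertical axes, from 0) in each cKO library (left, red) and WT library (right, blue) for 8 subunit genes in the upper 2 rows and 4 pathway genes in the lowest row. Black lines are group means. The groups do not overlap for Psmb1, Psma7, Psma2 and Psmd12, which are lower in cKO, and overlap for Psma4, Psmd5, Psmd14 and Psmb5. Ubb and Psme1 are higher in all cKO libraries, and Rps27a and Rad23b are lower in all of them.

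The 3 other cap proteins listed were all below 0, against 47.0% of all genes tested. Adrm1, a ubiquitin receptor of the cap, had 30.3, 36.5, 33.7, 26.0 and 34.6 CPM in cKO 1 to 5, against 37.5, 37.0 and 36.9 CPM in WT 1 to 3, without overlap, and a log2 fold change of -0.20 (SE 0.14, adjusted p 0.720 by edgeR). It was singled out after its values were seen, as were Sem1, a small lid protein, at -0.22 (SE 0.15), and Txnl1, a cap-bound thioredoxin, at -0.18 (SE 0.12). The chaperone Pomp, which guides core assembly, had -0.0016 (SE 0.11). Of the activators and inhibitors, Psme3, Psme4, Psme2, Psmf1 and Ecpas lay between -0.22 and 0.13. Nfe2l1 had 150.2, 181, 173, 176 and 237 CPM in cKO 1 to 5, against 151, 152 and 157 CPM in WT 1 to 3, so 4 of 5 cKO libraries lay above the WT range, with a log2 fold change of 0.26 (SE 0.13, adjusted p 0.616 by edgeR). The p97 proteins had a median of 0.12, the shuttle factors 0.082 and the ligases and deubiquitinases of the cap -0.15, each with 0 members called. The core assembly chaperones had a median of -0.0016 and the regulators of proteasome gene expression or import -0.14. Of the interferon and antigen presentation genes 7 of 8 were tested, with a median of -0.046 and 0 at an unadjusted p under 0.05. B2m, the light chain of MHC class I, was at 90.3 ± 29.5 CPM in cKO (SD, n = 5) and 131 ± 38.3 CPM in WT (SD, n = 3), while Tap1 and Tap2, which neighbour Psmb8 and Psmb9, were at 2.36 and 2.77 CPM at most.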

How the data were processed

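Ribosome-bound RNA from 8 hippocampal pools was sequenced. The deposited table holds raw counts per Ensembl gene, made by the authors with STAR 2.5.3a and HTSeq on mm10, per the submitters' processing notes, which do not give the annotation release, the strand setting or filters in the sources used here. Symbols, positions, exon lengths and GC content came from GENCODE vM21 for the same build, with a symbol for 37607 of 39017 genes, and promoters from RefSeq (GRCm38.p6).

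With edgeR 4.0.16 in R 4.3.3, counts were filtered (filterByExpr by group, 17654 genes), TMM-scaled and fitted by robust quasi-likelihood, with two-sided p-values for cKO over WT and Benjamini-Hochberg adjustment over all genes tested, called at an adjusted p under 0.05. The fit was tested on simulated data. The changes simulated were all larger than any estimated for the members, so detection of changes as small as theirs was not tried. SE is the fold change divided by the root of the test's F. Deviations by library used log2(CPM + 0.5). Exact permutation tests, two-sided, compared mean CPM over the 56 splits, with a smallest possible p of 0.0179. Levels per kb used the union of a gene's exons. Totals of 31760155 to 61823651 counts gave every tested member but Psmb9 at least 301 counts in each library, and precision is limited by the number of pools.

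Alternatives were 3 other scalings, 2 other filters, non-robust dispersions, DESeq2 1.42.0, limma-voom (limma 3.58.1), each library left out, the 6 libraries whose replicate numbers occur in both groups, fitted once with the number as a block and once without, a GC and length correction by library, and 2 other lengths. The members and lists were chosen with earlier results of these data known. Under the rule for named genes, values in every library are given for Hltf, members with an unadjusted p under 0.05 or groups that do not overlap, the catalytic subunits and their inducible counterparts, the 2 members with the smallest p in each role, the ends of the order of levels, members at 0 counts in a library, and the 6 pathway genes with the smallest p, of which 1 is not reported here. Other genes given were singled out after their values were seen. Among the members 11 share exon bases with another gene, and 0 repeat the counts of another gene across the table. Plots used matplotlib 3.10.9.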

Additional observations from a re-analysis of the deposited data

Results flagged for a closer look

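Among the cKO libraries, 4 of 30 values looked at had 1 library far from the other 4. Independent values would give about 1.5, but these genes were measured in the same libraries and are not independent. Psma2 was at 169 CPM in cKO 4, where the other 4 had 144 to 151, so that the gap to the nearest was 0.733 of the whole range. Psmb2 was at 109.7 CPM in cKO 3, against 83.7 to 89.4 in the others, a gap of 0.783. Psme1 was at 95.3 CPM in cKO 4, against 67.7 to 74.6, a gap of 0.749. Hltf was at 11.4 CPM in the library labelled cKO 5, against 2.83 to 5.10, a gap of 0.737.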

How the results depend on the processing

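No member was called at an adjusted p under 0.05 in any of the 19 alternatives (edgeR, DESeq2, limma-voom). Over the whole table the genes called were 0 by the edgeR fit of all libraries (at an unadjusted p under 0.05, 886 higher and 654 lower), 10 over 6 libraries without cKO 4 and cKO 5, 2 where 3 libraries had to reach 1 CPM, 2 without a filter, 1 with total-count scaling, 4 by limma-voom and 129 by DESeq2, and 0 with each library left out. Members with an unadjusted p under 0.05, 7 over all libraries, numbered 12 by limma-voom (6.51% of all genes lower), 3 with the GC and length correction (3.31%), and 2 to 8 with 1 library left out (1.99 to 5.10%), the lowest without WT 1, against 3.70% over all libraries. The members' median log2 fold change of -0.17 was -0.080 with the correction and -0.17 to -0.15 with 1 library left out. The cause of these shifts was not tested. Of 512 values of 27 single genes, 498 had the same sign and stayed on one side of the threshold, 1 newly passed (Rps27a by DESeq2) and 13 reversed: Psma6 (0.089), Psmb10 (-0.050) and Psmb7 (0.15) with the GC and length correction, Psmb10 with 1 library left out (-0.055 to 0.14), Psmb9 with 1 library left out (-0.89 to 0.37), Psmb6 with 1 library left out (-0.20 to 0.018), Psmb7 with 1 library left out (-0.066 to 0.044). Over 6 libraries, the fit with a replicate block gave 8 members with an unadjusted p under 0.05, against 9 without the block, and called 0 genes. Deviations of same-numbered libraries had r of -0.035, 0.016 and -0.086 across genes, so the numbers were not taken to pair the libraries. The median level over the members, averaged over the 3 WT libraries, was 24.0 CPM per kb of exon union, 54.0 by the mean protein-coding transcript and 48.7 by the longest, where Psmb7 and not Psma6 was highest. At these depths Psma8, Psmb8, Psmb9 and Psmb11 are too low for a comparison.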

Other observations

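The median SD of the tested members on the log2 scale was 0.191 in cKO and 0.0911 in WT, against 0.235 in cKO and 0.135 in WT for the 9151 genes that averaged 10 CPM or more. Processed pseudogenes of members drew few reads: Psmb7-ps2 had 50 counts over all libraries, against 60332 for Psmb7, Psmb5-ps had 7 against 30198, and Psmb6-ps had 5 against 11245.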
